A study of Mus musculus with 6 samples.

Results

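The 10 genes described here were grouped as scavenger receptors for modified lipoprotein, and binding by each of them was not tested. They are Msr1, Scarb1, Cd36, Olr1, Stab1, Stab2, Scarf1, Cd68, Scara5 and Cxcl16, found by symbol among the 53379 gene IDs of the count table. The list was set with earlier results of these data known. RNA-Seq libraries came from 4T1-T cells, a sub-clone proficient in VM (vasculogenic mimicry, the formation of vessel-like channels by tumor cells) that derives from 4T1, a cell line of a mouse mammary carcinoma. All cells were starved of serum overnight in Opti-MEM with 0.3% BSA, given 10 ug/mL of acetylated low-density lipoprotein (acLDL) labelled with Alexa-488 for 4 h and returned to complete medium for 1 h. Fluorescence sorting then separated the brightest 25% (acLDL-high, 3 libraries) from the dimmest 25% (acLDL-low, 3 libraries), on 3 separate occasions, so that replicates 1, 2 and 3 of each population share an occasion. Since the line is 1 sub-clone, the p-values below speak only for repeats of the experiment in these cells. With the level of each occasion fitted in the main test, they measure the scatter left after occasion and population are fitted.

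Acetylation or oxidation of LDL creates a particle that the LDL receptor no longer recognises well and that scavenger receptors bind instead. These receptors are a functional group of unrelated folds: class A proteins with collagen-like stalks (Msr1, Scara5), class B proteins with 2 membrane spans (Cd36, Scarb1), the mucin-like Cd68, the lectin-like Olr1, the EGF-repeat receptor Scarf1, the transmembrane chemokine Cxcl16 and the large multidomain stabilins (Stab1, Stab2). Macrophages and endothelial cells, especially the sinusoidal endothelium of the liver, are the cells best known for clearing modified LDL through them, and uptake of labelled acLDL is a standard label of both cell types. The comparison asks whether tumor cells that took up more acLDL also held more of these transcripts.

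The classical acLDL receptor was not detected in either population. Msr1, the founding class A receptor for acetylated LDL (ENSMUSG00000025044, chromosome 8 of GRCm38, 39581685 to 39642673), had 0 counts in each of the 6 libraries. Cd36, a receptor for oxidised LDL and long-chain fatty acids (ENSMUSG00000002944, chromosome 5, 17781690 to 17888801), and Olr1, the lectin-like oxidised LDL receptor of endothelium (ENSMUSG00000030162, chromosome 6, 129485244 to 129507165), also had 0 counts in all 6. The libraries held between 70263372 and 94216786 counts, so a count of 0 allows at most 3 counts, or from 0.0323 to 0.0429 CPM (counts scaled to library size by TMM) in 1 library and 0.00637 CPM over all 6. These limits cover counting error only and treat each count as independent. Whether both reads of a pair were counted was not tested, and if so the limits would be higher.

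Of the 2 stabilins, which clear acLDL in sinusoidal endothelium, these cells held transcripts of one. Stab1 (ENSMUSG00000042286, chromosome 14, 31139013 to 31168641) had from 3894 to 11768 counts in a library. Stab2 (ENSMUSG00000035459, chromosome 10, 86841198 to 87008025) had 2 counts in the acLDL-low and 4 in the acLDL-high library of occasion 1 and 0 in the other 4, too few for a fold change. To show the start regions of this pair beside that of Olr1, whose transcript was at 0, the 250 bases before the RefSeq start of each gene are given from GRCm38.p6, 5′ to 3′ on the gene's own (minus) strand, with any match to CCAAT or to GAGGAA, the core of sites for the myeloid factor PU.1, on either strand in capitals. They lie at chr14:31168642-31168891, chr10:87007943-87008192 and chr6:129507166-129507415.
Stab1: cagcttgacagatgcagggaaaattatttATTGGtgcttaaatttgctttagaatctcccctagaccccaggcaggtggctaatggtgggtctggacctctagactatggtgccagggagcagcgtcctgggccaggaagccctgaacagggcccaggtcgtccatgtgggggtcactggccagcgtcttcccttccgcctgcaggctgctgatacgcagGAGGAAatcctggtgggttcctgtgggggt
Stab2: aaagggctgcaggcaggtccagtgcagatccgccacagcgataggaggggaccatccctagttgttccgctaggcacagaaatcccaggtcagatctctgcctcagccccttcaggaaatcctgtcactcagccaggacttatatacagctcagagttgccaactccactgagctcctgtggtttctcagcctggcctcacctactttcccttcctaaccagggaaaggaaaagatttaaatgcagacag
Olr1: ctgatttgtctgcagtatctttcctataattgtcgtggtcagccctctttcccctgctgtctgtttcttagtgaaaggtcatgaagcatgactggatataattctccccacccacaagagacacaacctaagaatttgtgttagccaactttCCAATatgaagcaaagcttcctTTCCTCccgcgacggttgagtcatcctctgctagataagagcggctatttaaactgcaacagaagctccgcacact
The Stab1 window held 1 match to each motif, as did that of Olr1, and the Stab2 window held neither. CCAAT occurs in 34.5% and GAGGAA in 23.1% of the 27025 windows of this length. Neither a GC box (GGGCGG, in 32.9% of windows) nor a TATA box (TATAAA, in 13.0%) was found in the 3 windows, and 1 AP-1 sequence (TGANTCA, in 6.9%) was found in that of Olr1. The windows of Stab1, Stab2 and Olr1 held 5, 3 and 6 CpG dinucleotides, against a median of 6 over all windows. RefSeq starts were matched by symbol for 5 of the 10 genes, these and Cd36 and Cd68. The windows of Cd36 and Cd68 are not shown, and no annotated transcript held the bases just after either start. That of Cd36, also at 0 counts, held 2 GC boxes and 1 CCAAT. That of Cd68 held 1 GC box, 3 CCAAT, 2 AP-1 sequences and 1 GAGGAA.

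Levels of different genes were compared as RPKM, the CPM per kilobase of annotated exon (GENCODE M21). Cxcl16, a membrane-bound chemokine that also acts as a receptor for oxidised LDL and phosphatidylserine, stood highest, at 26.9 ± 5.57 RPKM (SD, n = 6 libraries), above 85.1% of the 12572 genes tested. Scarb1, the HDL receptor SR-BI, followed with 12.7 ± 2.28 RPKM, then Stab1 with 7.88 ± 3.50, the lysosomal glycoprotein Cd68 with 6.50 ± 1.10 and the ferritin receptor Scara5 with 3.35 ± 3.06 RPKM. Scarf1, an endothelial receptor for acLDL, had 0.0842 ± 0.0405 RPKM, above 5.86% of tested genes. Cxcl16 exceeded Scarb1 in 6 of 6 libraries with no overlap of their ranges. That order rests on annotated exon lengths of 3021 bases for Cxcl16 and 8500 for Scarb1. Before scaling to length, Scarb1 had the higher mean, at 107 CPM against 69.8 in acLDL-low and 109 against 92.7 in acLDL-high cells. Whether the cells transcribe all annotated exons was not tested. Scarb1, from 10.7 to 15.6 RPKM, stood above Cd68, from 5.37 to 8.54, and Scara5, from 0.412 to 7.80, with no overlap. The neighbours Scarb1 and Stab1, Stab1 and Cd68, and Cd68 and Scara5 did not differ beyond their spread, since their ranges overlapped and the gene with the higher mean led in 4, 3 and 4 of 6 libraries. Scara5 exceeded Scarf1 in 6 of 6. The plot of RPKM by gene shows this ladder.

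**Figure D1:**
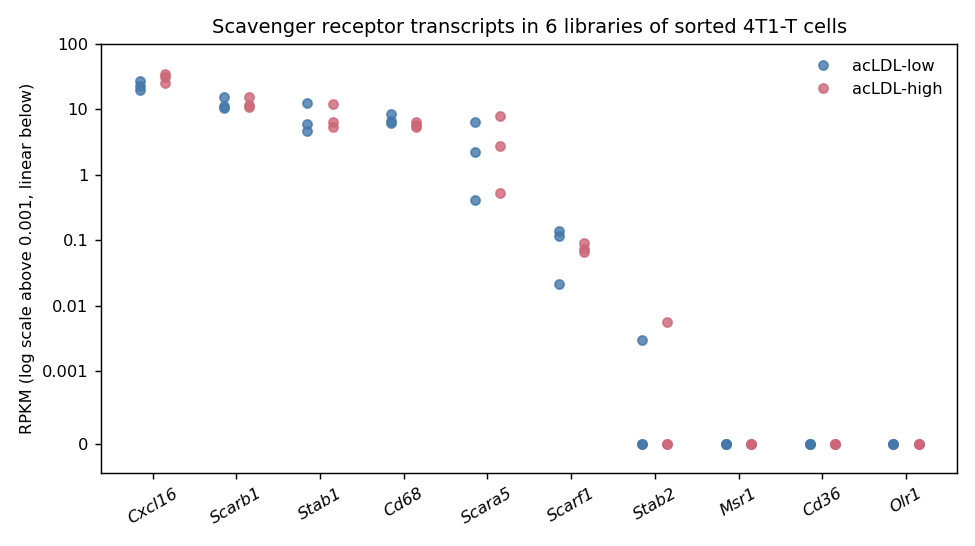
RPKM (vertical axis, logarithmic above 0.001 and linear below) of the 10 genes, ordered by mean, with 1 point per library in acLDL-low (blue) and acLDL-high (red). Cxcl16 leads, 4 genes lie between 0.412 and 15.6 RPKM, Scarf1 lies below 0.139, and Msr1, Cd36 and Olr1 sit at 0 in every library.

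Between the sorted populations, Cxcl16 and Scara5 were higher in acLDL-high cells and none of the 10 genes was called lower. The test was edgeR's quasi-likelihood test on the deposited counts with the occasion as a block, and a gene was called at an adjusted p under 0.05 (Benjamini-Hochberg over 12572 protein-coding genes). In these bulk libraries, more cells that express a gene and more of its RNA per cell cannot be told apart. Of the 10 genes, 6 had enough counts to be tested and 2 of these were called higher, beside a background of 3.43% of all tested genes called higher and 1.32% called lower (4.75% in either direction). The median log2 fold change of the 6 was 0.06, against 0.0017 over all genes tested. For 2 of 6 the direction was the same on all 3 occasions, beside 40.4% of all genes, and for 0 of 6 did the 2 populations separate without overlap, beside 2.86%. Without occasion 3 the members called higher numbered 1 (Cxcl16), beside 0.902% of all genes.

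Cxcl16 (ENSMUSG00000018920, chromosome 11, 70453983 to 70459984) reached 68.6, 81.1 and 59.8 CPM in the acLDL-low libraries of occasions 1, 2 and 3, and 94.4, 106 and 77.7 CPM in their acLDL-high partners, means of 69.8 ± 10.7 and 92.7 ± 14.2 CPM (SD, n = 3). Each acLDL-high library stood above its own partner, while the highest acLDL-low library, that of occasion 2, stood above the acLDL-high library of occasion 3. On the log2 scale it was higher by 0.41 (SE 0.04, edgeR adjusted p = 0.000196), and by 0.46, 0.39 and 0.38 on the single occasions, a 1.33-fold difference with a 95% interval of 1.24 to 1.41. Fitted with no replicate block, the difference was again 0.41, with an adjusted p of 1, in a fit that called 0 of all 12329 genes tested. Of the exon bases of Cxcl16, 552 of 3021 overlap the opposite-strand gene Zmynd15, which was at 3.16 ± 0.822 CPM in acLDL-low and 3.51 ± 1.50 CPM in acLDL-high cells (SD, n = 3). The part of reads from the shared bases in either gene's counts was not tested.

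Scara5 (ENSMUSG00000022032, chromosome 14, 65666403 to 65764826), a class A relative of Msr1 that takes up L-chain ferritin, reached 13.5, 2.51 and 38.6 CPM in the acLDL-low libraries and 17.0, 3.23 and 47.5 CPM in their partners. It was higher in acLDL-high cells each time by nearly the same ratio, although the 2 libraries of occasion 2 lay far below the rest. The log2 difference was 0.32 (SE 0.06, edgeR adjusted p = 0.0104), and 0.33, 0.36 and 0.30 by occasion, a 1.25-fold difference with a 95% interval of 1.14 to 1.37. With no replicate block it was 0.32, with an adjusted p of 1, and without the libraries of occasion 3 it was 0.34, with an adjusted p of 0.205.

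**Figure D2:**
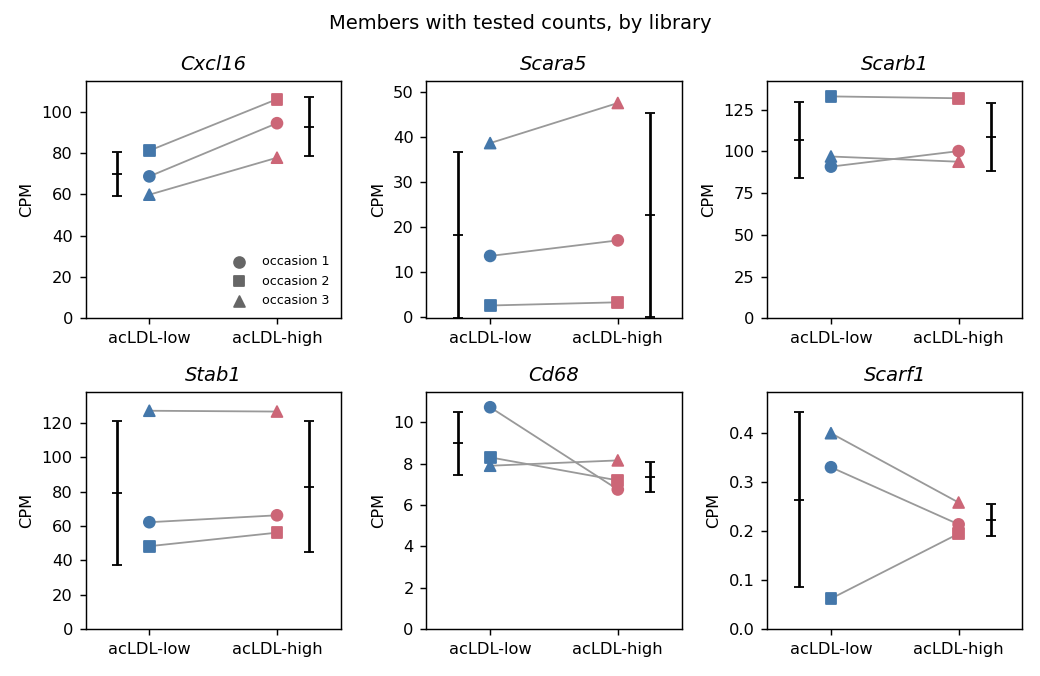
CPM (vertical axes) of the 6 tested genes in acLDL-low (blue) and acLDL-high (red) libraries, where grey lines join the libraries of 1 occasion, marker shapes give the occasion, and bars beside the points are the mean ± SD of the 3 libraries. The 3 lines of Cxcl16 and of Scara5 all rise, while those of the other 4 genes differ in direction.

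Scarb1 and Stab1, next to Cxcl16 in level, were not called. Scarb1 (ENSMUSG00000037936, chromosome 5, 125277087 to 125341094) takes up cholesterol ester from HDL and also binds acLDL. It reached 90.9, 133 and 97.0 CPM in the acLDL-low libraries and 100.2, 132 and 93.8 CPM in their partners. The populations overlapped, and the occasions disagreed in sign (0.14, -0.01 and -0.05). The fitted log2 difference of 0.03 (SE 0.05, adjusted p = 0.813) has a 95% interval of 0.951-fold to 1.09-fold, which does not hold the 1.33-fold of Cxcl16. Stab1 reached 62.2, 48.2 and 127 CPM in the acLDL-low libraries and 66.2, 56.1 and 127 CPM in their partners, a log2 difference of 0.10 (SE 0.05, adjusted p = 0.293) with an interval of 0.995-fold to 1.15-fold. Its 2 libraries of occasion 3 stood apart from the others and hardly differed from each other, at -0.01. Of its 10288 exon bases, 112 overlap Nt5dc2 on the opposite strand, a gene with 62.6 CPM in acLDL-low and 69.7 CPM in acLDL-high cells (log2 difference 0.16, adjusted p = 0.0626).

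Cd68 and Scarf1 pointed the other way without being called. Cd68 (ENSMUSG00000018774, chromosome 11, 69664213 to 69666153), a protein of late endosomes and lysosomes and a common macrophage stain, reached 10.7, 8.31 and 7.90 CPM in the acLDL-low libraries and 6.75, 7.19 and 8.16 CPM in their partners. It was lower on occasions 1 and 2, by log2 differences of -0.67 and -0.21, and slightly higher on occasion 3, at 0.05, and the populations overlapped. The fitted log2 difference was -0.28 (SE 0.11, adjusted p = 0.201), with an unadjusted edgeR p of 0.0307, beside 19.4% of all genes at an unadjusted p under 0.05. Without occasion 2 Cd68 was called, at -0.31 with an adjusted p of 0.0466 and 2.14% of all genes called lower, and without occasion 1 it was at -0.08 with an adjusted p of 0.792. Scarf1 (ENSMUSG00000038188, chromosome 11, 75513540 to 75526582) had 25, 5 and 28 counts in acLDL-low and 17, 14 and 24 counts in acLDL-high libraries. Its interval, from 0.445-fold to 1.75-fold around a log2 difference of -0.18 (SE 0.46, adjusted p = 0.880), shows that a change of the size seen for Cxcl16 was not detectable at this depth.

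**Figure D3:**
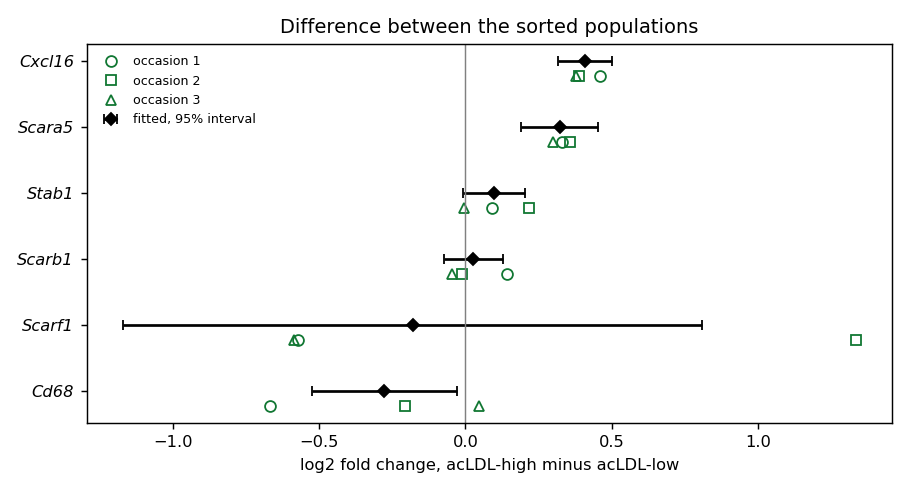
Log2 fold change (horizontal axis, acLDL-high minus acLDL-low) of the 6 tested genes, with the fitted value and its 95% interval (black diamonds and bars) and the difference on each occasion (green open markers). The intervals of Cxcl16 and Scara5 lie above 0, that of Cd68 (unadjusted, not called) just below 0, and those of Stab1, Scarb1 and Scarf1 include 0.

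The transcripts also differed between the occasions of the experiment. An F test of the 3 occasions in the same fit called 4 of the 6 genes (Scara5, Stab1, Scarb1 and Cxcl16), beside a background of 78.0% of all genes tested, so this share is close to that of genes at large. Scara5 spanned 15.0-fold between occasions (log2 range 3.91, adjusted p = 9.80e-12 from edgeR), from a mean of 2.87 CPM on occasion 2 to 43.1 CPM on occasion 3. Stab1 spanned 2.44-fold (adjusted p = 3.36e-09) with the same lowest and highest occasion, at 52.1 and 127 CPM. Scarb1 and Cxcl16 were highest instead on occasion 2, at 132 and 93.5 CPM, and spanned 1.39-fold and 1.36-fold (adjusted p = 5.68e-06 and 1.98e-05). Leaving out the highest or lowest occasion shrinks such a range by construction, so the falls given next only describe how the levels were spaced. With 1 occasion left out, the log2 range of Scara5 fell to as little as 1.50 (without occasion 2), that of Stab1 to 0.33 (without occasion 3) and that of Cxcl16 to 0.24 (without occasion 2) and 0.18 (without occasion 3), all still called. Without occasion 2, Scarb1 differed by 0.0035 between the remaining occasions (adjusted p = 0.966). Scarf1, with a log2 range of 1.35 (adjusted p = 0.119), was called without occasion 1 (1.37, adjusted p = 0.0330) and had a range of 0.27 without occasion 2. Cd68 spanned 1.12-fold, or 0.16 on the log2 scale (adjusted p = 0.566).

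**Figure D4:**
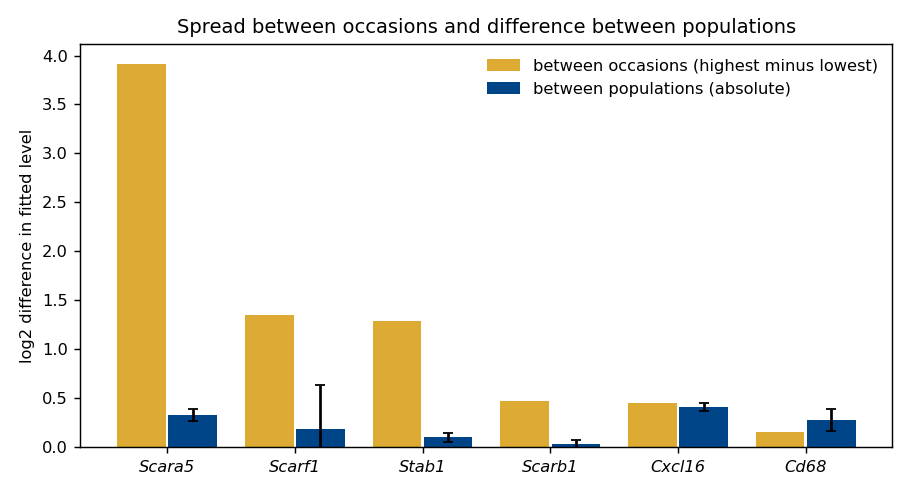
Log2 difference (vertical axis) of each tested gene between its highest and lowest occasion (yellow) and, as an absolute value, between populations (blue, with the standard error, drawn down to 0 at most). Scara5 reaches 3.91 between occasions and 0.32 between populations, while for Cxcl16 the values are 0.44 and 0.41.

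Over the 6 libraries, Scara5 and Stab1 followed a like course (Pearson r = 0.907 of log2 CPM), opposite to that of Scarb1 (r = -0.897 with Scara5 and -0.659 with Stab1). The 2 genes most like each member with an average log2 CPM of at least 1 were Cpd (r = 0.986) and Trim44 (0.984) for Cxcl16, Scd1 and Tmem87b for Scara5 (both 0.999), Fblim1 (0.999) and Trim2 (0.997) for Stab1, Cenpo and Axl for Scarb1 (both 0.998), and Zfp995 (0.943) and Zfp68 (0.941) for Cd68. These are descriptions over 6 libraries that share 3 occasions. Of these 10 genes Cpd was the 1 called between populations, at 0.16 on the log2 scale (adjusted p = 0.0447), and Scd1 rose and fell with Scara5 in a far smaller range, from 134 to 195 CPM.

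Among 18 other scavenger and related uptake receptors, Marco, Colec12, Cd163, Timd4, Havcr1 and Clec7a had 0 counts. Of the 18, 10 were tested, and beside 3.43% of all genes tested called higher, 1 rose. This was Scara3, a class A family member linked to oxidative stress, with 43.9, 39.3 and 52.4 CPM in the acLDL-low libraries and 52.4, 46.4 and 57.3 CPM in their partners (log2 difference 0.21, SE 0.05, edgeR adjusted p = 0.0252). It was not called without occasion 1 or without occasion 3. The hyaluronan receptor Cd44, the most counted of the list, had a log2 difference of 0.12 (adjusted p = 0.214) and was called without occasion 2 (0.17, adjusted p = 0.0292).

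Among 19 ligands and partners, 15 were tested and 2 rose, beside 3.43% of all genes tested called higher. Thbs1, thrombospondin-1, a ligand of Cd36, reached 779, 465 and 456 CPM in the acLDL-low libraries and 1075, 874 and 724 CPM in their partners, a log2 difference of 0.68 (SE 0.07, adjusted p = 0.000122). Tlr2, a Toll-like receptor that can signal together with Cd36, differed by 0.42 (SE 0.07, adjusted p = 0.00339). Cxcr6, the receptor of Cxcl16, had 0 counts, while the proteases that release Cxcl16 from the membrane, Adam10 and Adam17, differed by 0.12 and 0.16 on the log2 scale (adjusted p = 0.144 and 0.138). The light chain of ferritin that Scara5 binds, Ftl1, the most counted gene of the list, had 0.01 (adjusted p = 0.940). Without occasion 2, Adam17 was called, at 0.25 (adjusted p = 0.000216).

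Neither the regulators nor the genes that handle lipid after uptake were called, beside 4.75% of all genes tested called in either direction. Of 13 transcription factors known to control scavenger receptors or cholesterol, 10 were tested and 0 called, with a median log2 fold change of 0.01, and Srebf2, the most counted, had 0.10 (adjusted p = 0.337). Pparg, which activates Cd36 in macrophages, had 23 counts in all and was not tested. Of 14 genes for lysosomal cholesterol release, esterification, export and fatty acid handling, 13 were tested and 0 called, with a median of 0.03, and the lysosomal cholesterol carrier Npc2, the most counted, had 0.05 (adjusted p = 0.556). Abcg1, a cholesterol exporter, had the largest fitted difference of the list, 0.99 (SE 0.32, adjusted p = 0.104), on 204 counts in all. Slc27a1, a fatty acid transporter, had -0.16 (adjusted p = 0.0510).

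Among markers of the cell types that usually carry these receptors, most were at 0 or under 1 CPM, while Eng (endothelial) and Pdgfra (fibroblast) were well counted. The calls below stand beside 3.43% of all genes tested called higher and 1.32% called lower. Of 16 macrophage markers, Adgre1, C1qa, C1qb, C1qc and Tyrobp had 0 counts and 13 were under 1 CPM, and the list summed to 12.0 to 14.4 CPM in acLDL-low and 13.6 to 16.9 CPM in acLDL-high libraries. Most of that sum was Cd14, which epithelial cells can also express and which rose (log2 difference 0.32, SE 0.07, edgeR adjusted p = 0.0246), the 1 macrophage marker of 5 tested that did, although not without occasion 1, without occasion 3 or with DESeq2 and the block. Of 14 endothelial markers, Cldn5, Emcn, Erg, Flt4 and Sox17 had 0 counts, 6 were tested and 0 were called, and 11 were under 1 CPM. Eng, the TGF-beta co-receptor endoglin, was the most counted, from 68.0 to 102.6 CPM, with a log2 difference of 0.05 (adjusted p = 0.540). The list, most of it Eng, summed to 76.1 to 107 CPM in acLDL-low and 79.5 to 109.8 CPM in acLDL-high libraries. Of 10 fibroblast markers, 4 were tested and Postn rose, by 0.88 (SE 0.22, adjusted p = 0.0394) from a mean of 0.880 CPM to 1.73 CPM, a call lost without occasion 2, without occasion 3 and with DESeq2 and the block, while Pdgfra, the most counted at 28.1 to 42.8 CPM, had 0.08 (adjusted p = 0.393). The list summed to 30.4 to 42.3 CPM against 33.1 to 44.7 CPM.

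Epithelial markers were abundant, and some moved with the sort. Of 12, 11 were tested, and beside 3.43% of all genes tested called higher, 4 of them rose in acLDL-high cells. These were Ovol1, a transcription factor of epithelial identity (0.52, SE 0.06, adjusted p = 0.000486), the tight junction claudins Cldn7 (0.30, adjusted p = 0.0102) and Cldn3 (0.28, adjusted p = 0.0161), and the splicing regulator Esrp1 (0.22, adjusted p = 0.0456), all log2 differences. Ovol1 and Cldn3 stayed called with each occasion left out, Cldn7 was lost without occasion 3 and Esrp1 without occasion 2, without occasion 3 and with at least 10 counts required in every library. The list summed to 2867 to 4263 CPM in acLDL-low and 3149 to 4450 CPM in acLDL-high libraries, and Krt18, the most counted, had 0.03 (adjusted p = 0.831). The part of this shift, or of that of Cd14, in the differences of Cxcl16 and Scara5 was not tested.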

How the data were processed

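Per the labels and the study's methods, reads from poly(A)-selected stranded libraries were aligned to mm10 with STAR (2.5.2a) and counted per gene with featureCounts (1.4.3-p1), and the authors deposited raw counts for 53379 gene IDs in 6 libraries. The annotation release and strand setting are not given in the sources used here. The authors' own DESeq2 (1.20.0) comparison, which holds fold changes and p-values, served only for its 15973 protein-coding gene IDs and symbols.

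Counts were tested with edgeR (4.0.16, R 4.3.3). Genes passed filterByExpr, libraries were TMM-scaled, and the populations were compared by the quasi-likelihood test, the design holding the occasion as a block because the study's methods used the replicate information. The replicate numbers mark occasions. Deviations from the population mean correlated at 0.795, 0.846 and 0.799 within numbers, across genes. Differences by occasion are of log2 CPM with a prior count of 2, intervals are 95% from the fitted standard error, and positions and exon lengths are from GENCODE M21, which held 53274 of the IDs. The procedure was tested on simulated data. DESeq2 (1.42.0) and the fits without the block, with other scaling or low-count filters, with all genes of the table and without each occasion were the alternatives.

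The members and lists were chosen with earlier results of these data known. Named genes are the members, the called genes (at most 4) and the most counted gene of each list, and the 2 genes most correlated with each member of average log2 CPM of at least 1. Adam10, Adam17, Cxcr6, Pparg, Abcg1, Slc27a1, Pear1, Sparc, Cebpb, Zmynd15, Nt5dc2 and genes named for having 0 counts were chosen after their values or positions were seen.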

Additional observations from a re-analysis of the deposited data

How the results depend on the processing

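Over 10 alternatives, the log2 fold change of Cxcl16 lay between 0.38 and 0.42 and that of Scara5 between 0.31 and 0.34. The calls rested on the block. Without the replicate block 0 scavenger receptors of the 10 (the members) and 0 genes of the 4 pathway lists were called in edgeR, as were 0 of all 12329 genes tested (45 at an unadjusted p under 0.05), and 0 and 0 in DESeq2, with 0 of 15970 genes (77 unadjusted). Cxcl16 was called in the other 8 alternatives and Scara5 in 7 of them, the exception being the fit without replicate 3. Leaving out 1 occasion gave from 1 to 2 members called higher (1 without replicate 3, beside 0.902% of all genes). From 0 to 1 members were called lower (Cd68, without replicate 2, beside 2.14% of all genes). Between occasions, from 3 to 5 members were called. The share of all genes called between occasions was 78.0% in the main fit and was not computed with an occasion left out. The 3 pathway genes called higher became 6 without the low-count filter, adding Adam17, Sparc and Cebpb, and from 2 to 6 with an occasion left out. Calls in either direction over all genes rose too, from 597 of 12572 in the main fit. They numbered 932 of 15973 without the low-count filter and 869 of 12478 without replicate 2, the 2 fits with 6 pathway genes. The 0 pathway genes called lower became 1 (Slc27a1) with DESeq2 size factors, without the low-count filter and with at least 10 counts in every library. With an occasion left out they numbered from 0 to 1 (Pear1, without replicate 1). Over all genes, calls in either direction were 663 of 12572 with DESeq2 size factors and 584 of 11742 with at least 10 counts. Without replicate 1 they were 646 of 12316, and without replicate 3 they were 126 of 12421. Scarb1 and Scarf1, neither called in any alternative, changed sign when an occasion was left out. With replicate 1, 2 or 3 left out, Scarb1 ranged from -0.028 (without replicate 1) to 0.065 and Scarf1 from -0.63 to 0.16, being above 0 without replicate 1 (0.08) and without replicate 3. Depth limits what can be said of Scarf1 (113 counts in all), Stab2 (6) and the 3 members at 0.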
